A study of Mus musculus with 28 samples.

Results

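The Rab GTPase genes are the 59 genes, of 55450 in the deposited RNA-seq table, whose symbol is Rab followed by a number and at most 1 letter and 1 further digit. They were followed through the conversion of C10 cells into macrophages. C10 (CEBPalpha-ER) is a mouse Pre-B cell line derived from HAFTL cells that carries a CEBPalpha-ER transgene, a rat C/EBPα joined to the hormone-binding part of the estrogen receptor. All samples carry the transgene and grew in the same medium, and they come from this single line. The 0h group (3 libraries) received no inducer, and the 1h, 12h and 48h groups (3 libraries each) received 100 nM β-estradiol together with IL-3 and CSF-1 for that time. No untreated group of 1h, 12h or 48h was analysed, so the hormone, the 2 cytokines and the time in culture cannot be told apart. Promoter Capture Hi-C (PCHi-C), which lists the DNA fragments that contact captured promoters, was used for the same 4 time points.

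Rab proteins are small GTPases that mark the membranes of the cell and direct vesicles between them. Each is switched on by an exchange factor that loads GTP, switched off by a GTPase activating protein, anchored in the membrane by geranylgeranyl lipids, and taken off it by GDI. In the active state it binds effectors such as tethers and motor adaptors. Macrophages take up particles into phagosomes that acquire Rab5 and then Rab7 on the way to the lysosome, which is why this family is often studied in them.

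Levels are given as scaled TPM: the deposited TPM (transcript abundance corrected for transcript length and library total) divided by a size factor per library. This scaling was used because DESeq2, the tool of the study, scales libraries in the same way. A pair of overlapping genes at a ribosomal RNA locus took from 70.3% to 82.9% of the TPM of a library, and the share left for all other genes shifted with it. The size factors did not follow that share alone. In 48h replicate 3 the pair took 75.7% and the factor was 0.752, while in 0h replicate 1 these were 79.8% and 1.03. Between 0h and 48h the summed scaled TPM of 12 Pre-B markers went from 336 to 365 per library down to 47.8 to 55.8, with Vpreb2 and Rag1 at 0 in all 48h libraries, and 11 of the 12 fell. That of 12 macrophage markers went from 14.4 to 17.3 up to 1269 to 1362, and all 10 tested rose, although Mertk was listed at 0 in every 48h library. The sum of 10 granulocyte markers per library lay between 0 and 0.587 at 0h, between 9.04 and 12.6 at 12h and between 2.58 and 6.15 at 48h, with Ctsg and Mpo at 0 throughout, and the 7 T and NK cell markers never summed to more than 0.279. The part of these shifts in the Rab values was not tested. In bulk RNA, a change in the share of cells that express a gene and a change in its RNA per cell cannot be told apart, so every value below is a mean over the culture.

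Taken as a family, the Rab genes had summed levels of 154 ± 3.21, 147 ± 3.55, 217 ± 4.55 and 270.4 ± 3.13 scaled TPM in the order 0h, 1h, 12h and 48h (SD over 3 libraries). The 3 libraries at 48h lay between 266.9 and 273.0, above all others. The same sums on the deposited TPM were 143 ± 17.7, 215 ± 14.0, 256 ± 33.9 and 189 ± 16.3, so on that scale the sum was highest at 12h. Members of the late endosome, lysosome and autophagy group (8 genes) summed to 32.4 ± 0.72 at 0h and 69.5 ± 5.06 at 48h, a ratio of 2.14, or of 1.55 without Rab7 (14.8 ± 0.68 to 23 ± 2.85). The ratio was 1.86 for the early endosome and phagosome group (11 genes, 34.9 ± 1.23 to 65.1 ± 1.03), 1.69 for recycling and surface delivery (11 genes, 42.6 ± 2.26 to 72 ± 4.53) and 1.48 for ER and Golgi traffic (13 genes, 31.2 ± 2.07 to 46.2 ± 3.41). Regulated secretion and lysosome-related organelles (11 genes) had the lowest sum of these groups, which went from 4.45 ± 1.13 at 0h through 1.73 ± 0.22 at 1h to 11.5 ± 2.24 at 48h, a ratio of 2.59. Without Rab44, which was at 0 at 0h, the other 10 genes of that group summed to 4.45 ± 1.13 at 0h and 3.32 ± 0.613 at 48h, a ratio of 0.747. The 5 remaining genes, grouped as other, went from 8.17 ± 1.78 to 6.13 ± 0.913.

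**Figure D1:**
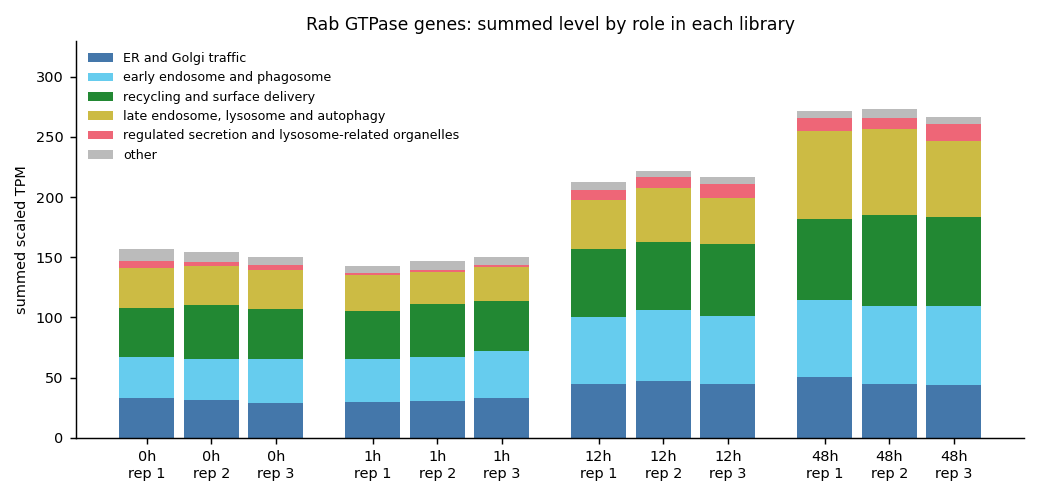
Summed scaled TPM (y axis) of the 59 Rab genes in each of the 12 libraries (x axis, time after induction and replicate), stacked by role. The 0h and 1h bars end between 143 and 157, the 12h bars between 213 and 222 and the 48h bars between 267 and 273. On the deposited TPM the order of 12h and 48h is turned.

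The 6 most abundant members over the 12 libraries were Rab7, Rab11a, Rab5c, Rab14, Rab1a and Rab11b, with means of 27.7, 15.1, 14.1, 13.2, 10.6 and 9.52 scaled TPM. Together they held 41.1% of the family's sum at 0h and 46.7% at 48h. Rab7 led at every time point, with 11.4% of the sum at 0h and 17.2% at 48h, while at 0h Rab14 (11 ± 1.36) and Rab11a (10.3 ± 1.83; SD, n = 3) followed it with ranges that overlapped. At 48h Rab11a (21.4 ± 0.905) and Rab5c (19.9 ± 3.44) stood next, and their libraries overlapped too. Of the 59 members, 33 had a mean of at least 1 scaled TPM at 0h and 33 at 48h.

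A filter on low values (a mean deposited TPM of at least 0.1) left 44 members and 16415 genes in all for testing. The 15 members left out were Rab13, Rab15, Rab17, Rab19, Rab20, Rab25, Rab27b, Rab30, Rab32, Rab33a, Rab38, Rab3b, Rab3c, Rab40b and Rab9b. Of these, Rab15, Rab27b, Rab32, Rab38, Rab40b and Rab9b were listed at 0 in all 12 libraries. The other 9 never exceeded 0.478 scaled TPM (Rab25, in 48h replicate 1). Rab32 and Rab38 work in the making of melanosomes and other lysosome-related organelles, Rab3b, Rab3c and Rab27b in regulated secretion, and Rab17 and Rab25 in epithelial cells. Since the filter used the mean over all time points, a gene that is high at some time points alone, such as Rab44, passed through the libraries in which it was high. Rab6b and Rab42, with mean deposited TPM of 0.1 and 0.111, were at or near the limit. The calls of these members are therefore not independent of the filter.

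The first question was how far the family had changed by 48h, the last time point. At 48h against 0h, 21 of the 44 members tested rose and 3 fell past a threshold of 0.05 on the Benjamini-Hochberg adjusted p of limma, or 47.7% and 6.82%. Over all genes tested 24.5% rose and 22% fell. Of the members, 13 rose and 2 fell by more than 2-fold, or 29.5% and 4.55%, beside 19.6% and 17.6% of all genes. The median log2 fold change was 0.68 over the 44 members and 0.072 over all genes. The members tested had a median level of 3.12 scaled TPM and all genes tested one of 1.36, so the 2 sets differ in level as well. The replicate 3 libraries deviated together from their group means at every time point. With replicates 1 and 2 alone, 19 of 43 members tested rose and 3 fell at 48h, or 44.2% and 6.98%, beside 20.8% and 19.4% of all genes.

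Scaling bears on these counts. With the TPM as deposited all genes together had a median log2 fold change against 0h of -0.18 at 48h, 0.34 at 12h and 0.59 at 1h, and of -0.62 for 48h against 12h. Of the members, 10 rose and 5 fell at 48h on that scale, or 22.7% and 11.4%, beside 15.9% and 27.2% of all genes. Those that rose were Rab44, Rab29, Rab5b, Rab31, Rab8b, Rab6b, Rab7, Rab24, Rab5c and Rab11a, and those that fell were Rab3a, Rab28, Rab7b, Rab40c and Rab4b. Relative to the median of all genes, the median of the members was higher by 0.60 on the scaled TPM, 0.48 on the deposited TPM, 0.59 after rescaling without the 20 most abundant genes and 0.66 after quantile normalization. Rescaling without the 20 most abundant genes lost the 48h calls of Rab8a, Rab5a, Rab33b and Rab9, and quantile normalization those of Rab36 and Rab6b. None of the 24 calls at 48h turned its sign under any of these scalings. Tests of single members below are on the scaled TPM unless the deposited TPM is named.

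**Figure D2:**
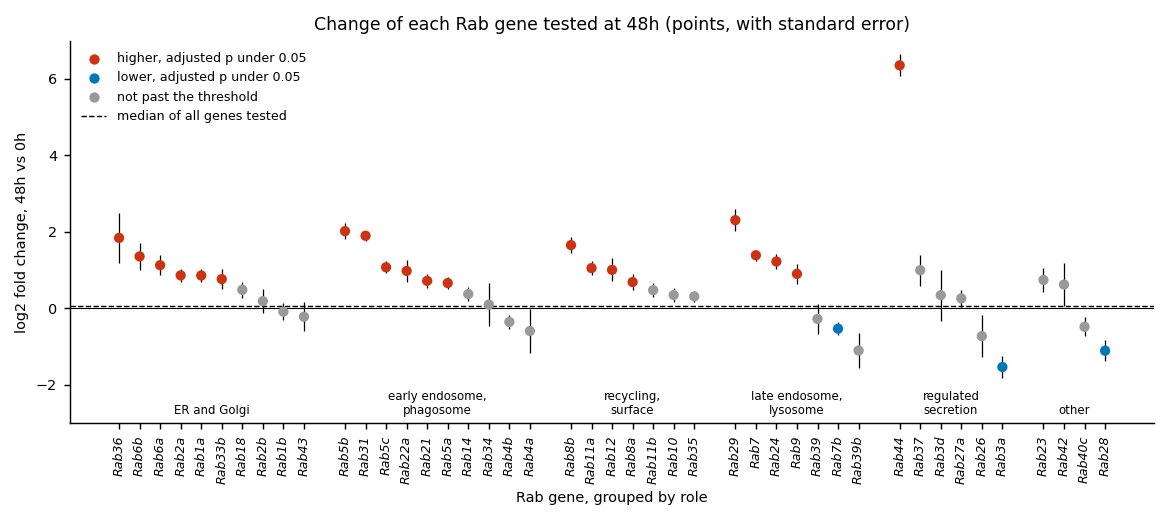
Log2 fold change on the log2(scaled TPM + 0.1) scale (y axis) of the 44 Rab genes tested (x axis, grouped by role) at 48h against 0h, with the standard error from limma. Rab44, at 6.36, stands apart from all others, which lie between -1.53 and 2.31. On the deposited TPM 10 members rose and 5 fell.

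The earlier steps were compared in the same model. At 1h 1 member rose and 3 fell, or 2.27% and 6.82%, beside 5.42% and 4.92% of all genes. Of the members, 14 rose and 2 fell at 1h on the deposited TPM, or 31.8% and 4.55%, where 24.1% of all genes rose and 1.41% fell. At 12h 15 rose and 3 fell, or 34.1% and 6.82%, beside 16% and 14.5% of all genes. The deposited TPM gave 21 and 2 at 12h, or 47.7% and 4.55%, beside 22.3% and 7.82%. Between 12h and 48h 8 rose and 1 fell, or 18.2% and 2.27%, beside 10.5% and 11.9%. That last split depended on the scaling, since on the deposited TPM 0 rose and 11 (25%) fell, beside 4.1% and 31.7% of all genes, and Rab21 and Rab31 turned to -0.14 each. After rescaling without the 20 most abundant genes 1 rose and 2 fell, or 2.27% and 4.55%, beside 6.47% and 14.4%. It also moved with single libraries: 5 rose without 12h replicate 1, and 2 fell without 12h replicate 3 and 4 without 48h replicate 3. The comparisons with 0h share the 0h libraries, so the values at 1h, 12h and 48h are not independent of each other.

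**Figure D3:**
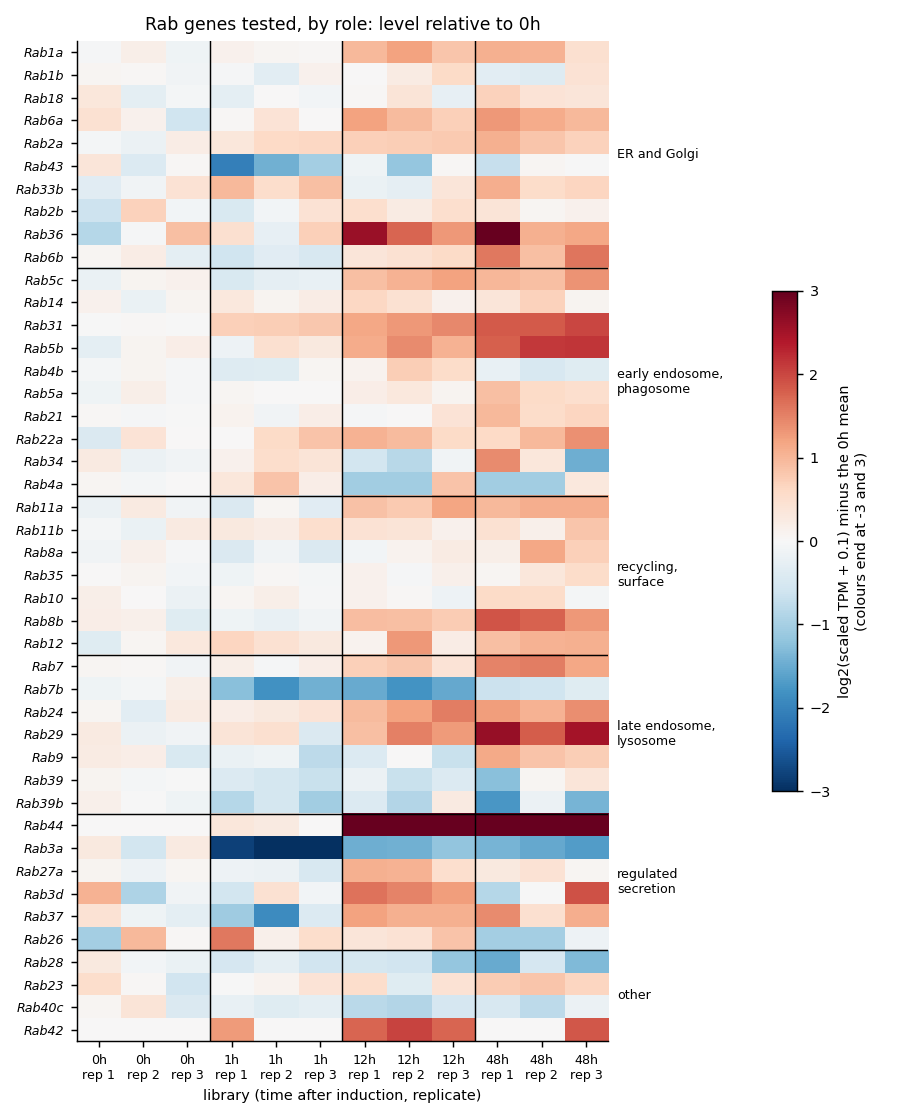
Level of each of the 44 Rab genes tested (rows, by role) in each library (columns) as log2(scaled TPM + 0.1) minus the gene's mean at 0h. The 12h and 48h columns are mostly red in the endosomal groups, Rab44 is beyond 3 in all 6 of these libraries, and Rab3a, Rab7b and Rab43 are blue at 1h. On the deposited TPM all genes shift by a median of 0.59 at 1h, 0.34 at 12h and -0.18 at 48h.

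Among the members that act at the early endosome and phagosome, 6 of the 10 tested (60%) rose at 48h and none fell. Of all genes 24.5% rose and 22% fell. Only Rab31, Rab5b and Rab5c of this group rose at 48h on the deposited TPM, and Rab4b fell. Of all genes 15.9% rose and 27.2% fell on that scale. Rab31, a relative of Rab5 that carries cargo from the Golgi to endosomes, was on the scaled TPM the only member to rise at 1h. Its libraries read 2.11, 2.19 and 2.12 scaled TPM at 0h, 3.57, 3.66 and 3.81 at 1h, 4.94, 5.44 and 6.01 at 12h and 7.98, 7.92 and 8.95 at 48h. No library of 1 time point overlapped with another time point. The log2 fold change of Rab31 was 0.75 (standard error 0.13, limma adjusted p = 0.00327) at 1h and 1.90 (standard error 0.13, limma adjusted p = 3.56e-07) at 48h. Rab5b, 1 of 3 Rab5 forms that direct the fusion of early endosomes, read 1.49, 1.99 and 2.17 at 0h and 6.66, 8.49 and 8.57 at 48h, with 4.17, 5.16 and 3.95 at 12h. It rose by 2.02 (standard error 0.21, limma adjusted p = 1.3e-05) on the log2 scale.

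The 3 Rab5 genes differed in level and in change. Rab5c was the most abundant and rose from 9.36 ± 1.1 to 19.9 ± 3.44 scaled TPM (SD, n = 3), reaching 19.5 ± 2.06 already at 12h. Its log2 fold change was 1.05 (standard error 0.15, limma adjusted p = 0.000429) at 12h and 1.08 (standard error 0.15, limma adjusted p = 0.000159) at 48h. Rab5a rose less, from 2.23, 2.77 and 2.38 to 4.65, 3.71 and 3.54, with a log2 fold change of 0.66 (standard error 0.16, limma adjusted p = 0.0046). At 0h the order was Rab5c, Rab5a and Rab5b, whereas at 48h Rab5b stood above Rab5a in every library. Rab21, which travels with integrins, read 2.28, 2.18 and 2.23 at 0h and 4.48, 3.3 and 3.53 at 48h and rose by 0.72 (standard error 0.18, limma adjusted p = 0.00603). The calls of Rab5a and Rab21 at 48h were lost on the deposited TPM.

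Rab22a, an early endosomal member of the Rab5 group, rose from 1.16 ± 0.359 to 2.38 ± 0.669 scaled TPM (SD, n = 3), a log2 fold change of 0.98 (standard error 0.30, limma adjusted p = 0.0188). Without 0h replicate 1 it was 0.75 (limma adjusted p = 0.079) and without 48h replicate 3 0.79 (limma adjusted p = 0.0655), within a range of adjusted p from 0.012 to 0.131 over the alternatives. Rab14, which shuttles between the Golgi and endosomes, was abundant at all times but did not pass on the scaled TPM, with 11.9, 9.43 and 11.6 at 0h and 14.1, 17.7 and 11.5 at 48h. Rab4b, which returns cargo quickly from early endosomes to the surface, read 3.67, 5.71 and 4.99 at 12h and 2.92, 2.4 and 2.62 at 48h. On the scaled TPM it was the only member to fall between these times, with a log2 fold change of -0.81 (standard error 0.19, limma adjusted p = 0.01). Its exons share 65.0% of their length with Gm21983 and Mir3101. All 3 of its 48h libraries also lay below the 0h libraries (3.28, 3.59 and 3.33), but that difference did not pass (limma adjusted p = 0.156). Rab34 and Rab4a did not pass in any comparison.

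In the late endosome, lysosome and autophagy group, 4 of the 7 members tested (57.1%) rose at 48h and 1 (14.3%) fell. The shares of all genes were the same 24.5% and 22%. Rab29, Rab7 and Rab24 of this group rose at 48h on the deposited TPM too, and Rab7b fell. Of all genes 15.9% rose and 27.2% fell on that scale. Rab7 (chr6:87999106-88045270, - strand, GRCm38), which drives late endosomes and phagosomes to fuse with lysosomes, had the largest gain in level of the family. Its libraries read 18.4, 17.9 and 16.4 scaled TPM at 0h, 19.8, 17.2 and 20.2 at 1h, 28.7, 30.8 and 23.2 at 12h and 49.2, 51.1 and 39.2 at 48h. The 0h and 1h libraries overlapped, and each later time point lay above all earlier ones. The log2 fold change of Rab7 was 0.64 (standard error 0.15, limma adjusted p = 0.00673) at 12h and 1.39 (standard error 0.15, limma adjusted p = 1.39e-05) at 48h. Rab24, a member linked to autophagy, had means of 2.29 ± 0.458, 5.5 ± 1.11 and 5.44 ± 0.669 at 0h, 12h and 48h (SD, n = 3), a log2 fold change of 1.23 (standard error 0.19, limma adjusted p = 0.000341) at 48h.

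Rab29 and Rab7b, both also named for a likeness to Rab7, moved in opposite ways. Rab29 (chr1:131867224-131872887, + strand, GRCm38), a Golgi and lysosome protein that recruits the kinase LRRK2, read 1.68, 1.21 and 1.25 scaled TPM at 0h, 1.82, 1.94 and 0.988 at 1h, 2.65, 4.05 and 3.44 at 12h and 8.84, 5.06 and 8.13 at 48h. It rose by 2.31 (standard error 0.29, limma adjusted p = 6.18e-05) on the log2 scale, the largest rise after that of Rab44. Rab7b (chr1:131688695-131715439, + strand, GRCm38), which sends cargo from late endosomes to the Golgi and limits Toll-like receptor signalling, read 7.78, 8.19 and 9.53 at 0h and 3.49, 2.33 and 3.07 at 1h. It stayed at 2.91, 2.35 and 2.84 at 12h and then read 5.42, 5.56 and 6.57 at 48h. All 48h libraries of Rab7b lay above the 1h and 12h libraries and below the 0h libraries.

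The log2 fold change of Rab7b was -1.50 (standard error 0.17, limma adjusted p = 0.000302) at 1h, -1.62 (standard error 0.17, limma adjusted p = 4.57e-05) at 12h and 1.09 (standard error 0.17, limma adjusted p = 0.000997) from 12h to 48h. At 48h against 0h it was -0.53 (standard error 0.17, limma adjusted p = 0.0268). That last call was lost without 0h replicate 3 (-0.45, limma adjusted p = 0.096), without 48h replicate 1 (-0.45, limma adjusted p = 0.0922) and without 48h replicate 2 (-0.49, limma adjusted p = 0.0769). Over its alternatives the adjusted p ran from 0.00391 to 0.096. Rab9, which returns mannose 6-phosphate receptors to the Golgi, read 2.5, 2.43 and 1.51 at 0h, 1.55, 2.11 and 1.29 at 12h and 4.7, 3.86 and 3.55 at 48h. Its late rise was 1.26 (standard error 0.26, limma adjusted p = 0.00546) from 12h and 0.90 (standard error 0.26, limma adjusted p = 0.0156) from 0h. The second of these was lost without 0h replicate 3 (0.68, limma adjusted p = 0.0663) and without 48h replicate 1 (0.82, limma adjusted p = 0.0509), within a range from 0.00279 to 0.212. Rab39 and Rab39b, both under 0.5 scaled TPM in all libraries, did not pass.

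**Figure D4:**
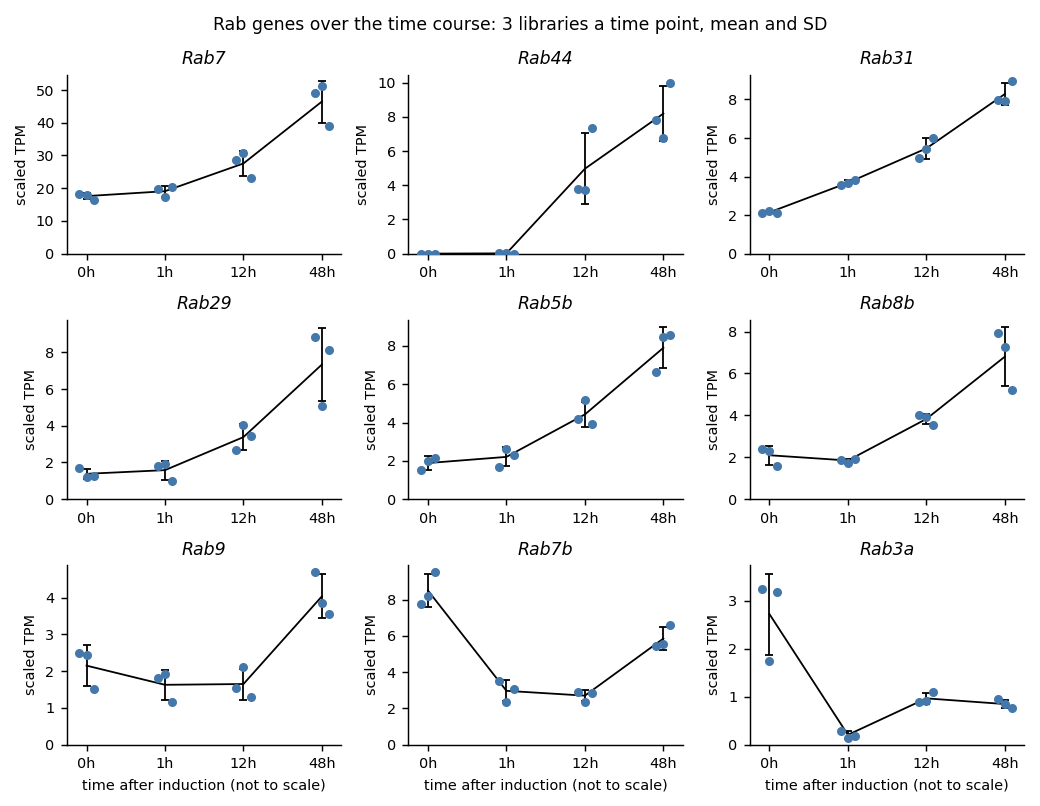
Scaled TPM (y axis) at 0h, 1h, 12h and 48h (x axis, not to scale) of 9 Rab genes. Points are the 3 libraries of a time point, and lines and bars give the mean and SD. Rab7, Rab31, Rab29, Rab5b and Rab8b reach their highest means at 48h, Rab44 is at 0.0257 or below until 1h and at 3.75 or above from 12h, and Rab7b and Rab3a drop at 1h. On the deposited TPM 0 Rab genes rose from 12h to 48h.

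In the recycling and surface delivery group, 4 of the 7 members tested (57.1%) rose at 48h and none fell. Of all genes 24.5% rose and 22% fell. The share depends on how members were placed. Rab12, which steers cargo to degradation, was placed in this group, and Rab4b, which recycles, in the early endosome group. Only Rab8b and Rab11a of this group rose at 48h on the deposited TPM, where 15.9% of all genes rose. Rab8b, which takes part in traffic from the Golgi to the plasma membrane, read 2.4, 2.31 and 1.57 scaled TPM at 0h, 1.87, 1.75 and 1.91 at 1h, 4.03, 3.91 and 3.55 at 12h and 7.94, 7.26 and 5.21 at 48h. The 12h libraries lay between those of 0h and 48h without overlap, and the log2 fold change was 1.65 (standard error 0.20, limma adjusted p = 4.2e-05) at 48h. Its close relative Rab8a rose less, from 6.96, 8.33 and 7.31 to 8.53, 17 and 12.5, with 48h replicate 2 the highest. That rise (0.69, standard error 0.22, limma adjusted p = 0.024) was lost without 48h replicate 2 (0.46, limma adjusted p = 0.0819), without 48h replicate 3 (0.68, limma adjusted p = 0.0505), without 0h replicate 1 (0.62, limma adjusted p = 0.0783) and without 0h replicate 3 (0.67, limma adjusted p = 0.0643), within a range from 0.00177 to 0.469. Rab11a, the main Rab of the recycling endosome, was near its 48h level by 12h, reading 9.09, 12.4 and 9.48 at 0h, 18.8, 17.7 and 23.5 at 12h and 20.3, 21.7 and 22 at 48h. Its log2 fold change was 0.95 (standard error 0.17, limma adjusted p = 0.00181) at 12h and 1.05 (standard error 0.17, limma adjusted p = 0.000434) at 48h.

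Rab11b, whose protein is close to that of Rab11a, read 7.31, 6.7 and 9.22 at 0h and 10.6, 8.49 and 13.6 at 48h and did not pass (0.48, standard error 0.19, limma adjusted p = 0.0598). Rab12, which steers the transferrin receptor to degradation, rose from 1.46 ± 0.358 to 2.99 ± 0.192 scaled TPM (SD, n = 3), a log2 fold change of 1.01 (standard error 0.30, limma adjusted p = 0.0163). Without 0h replicate 1 it was 0.80 (limma adjusted p = 0.0692), within a range from 0.00232 to 0.131. Rab10 and Rab35, which also serve the surface, had log2 fold changes of 0.35 and 0.31 at 48h that did not pass.

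The ER and Golgi group held 10 members that were tested, of which 6 (60%) rose at 48h and none fell. Of all genes 24.5% rose and 22% fell. This share depended on the scaling, since only Rab6b of the group rose at 48h on the deposited TPM. None fell there, beside 15.9% and 27.2% of all genes that rose and fell. Rab1a, which starts transport from the ER to the Golgi, read 6.95, 8.02 and 6.45 scaled TPM at 0h, 14.1, 16.6 and 12.8 at 12h and 14.9, 14.7 and 9.96 at 48h, a log2 fold change of 0.86 (standard error 0.17, limma adjusted p = 0.00169). Its close relative Rab1b had 7.83, 7.62 and 6.99 at 0h and 5.94, 5.73 and 10.2 at 48h and a log2 fold change of -0.09 (standard error 0.23, limma adjusted p = 0.801). Rab6a, of retrograde Golgi transport, rose from 4.14, 3.29 and 1.94 to 7.51, 6.59 and 5.95, by 1.13 (standard error 0.25, limma adjusted p = 0.00343). Rab2a, which acts between the ER and the Golgi, went from 2.44 ± 0.369 to 4.51 ± 0.608 (SD, n = 3), by 0.86 (standard error 0.16, limma adjusted p = 0.00103). None of Rab1a, Rab6a and Rab2a passed at 48h on the deposited TPM, while all 3 passed at 12h.

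The other calls in this group were on lower levels. Rab6b, known from neurons, read 0.0582, 0.0761 and 0.0238 scaled TPM at 0h and 0.351, 0.181 and 0.359 at 48h (1.36, standard error 0.34, limma adjusted p = 0.00701). It met the filter on low values at its limit, through its higher libraries. Rab33b, which binds the autophagy protein Atg16l1, had means of 1.14 ± 0.361, 2.04 ± 0.341, 1.1 ± 0.299 and 1.99 ± 0.433 over the 4 time points (SD, n = 3). Its 48h rise (0.77, standard error 0.27, limma adjusted p = 0.0352) was lost without 0h replicate 1 (0.58, limma adjusted p = 0.134), without 0h replicate 2 (0.70, limma adjusted p = 0.0966) and without 48h replicate 1 (0.63, limma adjusted p = 0.109), within a range from 0.0148 to 0.308. Rab36 read 0, 0.0761 and 0.238 at 0h and 1.69, 0.279 and 0.306 at 48h, so 48h replicate 1 was far above the others. Its log2 fold change fell from 1.84 to 1.15 (limma adjusted p = 0.139) without that library, within a range from 0.0231 to 0.139, and the call was also lost without 0h replicate 1, 0h replicate 2, 1h replicate 1 or 12h replicate 2 (limma adjusted p = 0.0505 to 0.137). Rab18 (log2 fold change 0.49), which sits on lipid droplets, and Rab2b (0.19) did not pass at 48h.

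Rab43, which acts at the Golgi, dipped at 1h. Its libraries read 3.63, 2.09 and 2.86 scaled TPM at 0h, 0.597, 0.968 and 1.33 at 1h, 2.56, 1.2 and 2.87 at 12h and 1.69, 2.9 and 2.75 at 48h, and the 1h libraries lay below all 0h libraries. The log2 fold change at 1h was -1.50 (standard error 0.38, limma adjusted p = 0.0282). It was lost without 0h replicate 1 (-1.32, limma adjusted p = 0.0918), 0h replicate 3 (-1.48, limma adjusted p = 0.0753), 1h replicate 1 (-1.23, limma adjusted p = 0.106) or 1h replicate 2 (-1.53, limma adjusted p = 0.0747), within a range from 0.0165 to 0.135. Of the 5526 exonic bases of Rab43, 75.4% also belong to the annotated gene Gm45140, so its reads are shared and its level is uncertain.

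The regulated secretion group held the largest change of the family in each direction. Of its 6 members tested, 1 rose at 48h and 1 fell (16.7% each), beside 24.5% and 22% of all genes. Rab44 (chr17:29114145-29148980, + strand, GRCm38) encodes an unusually large Rab with EF-hand motifs that is known from granule release in mast cells. All 3 libraries of 0h list it at 0, and its 1h libraries read 0.0257, 0.0196 and 0 scaled TPM. At 12h the libraries read 3.78, 3.75 and 7.37 and at 48h 7.83, 6.77 and 9.98. Every library of 12h and 48h was thus above every library of 0h and 1h, while 12h replicate 3 lay inside the range of 48h. The fitted log2 fold change was 5.59 (standard error 0.29, limma adjusted p = 1.83e-07) at 12h and 6.36 (standard error 0.29, limma adjusted p = 1.99e-08) at 48h. Since it stands against values of 0, its size rests on the 0.1 added, and it ran from 3.19 to 9.66 at 48h over the alternatives. From 12h to 48h the difference of 0.77 (standard error 0.29, limma adjusted p = 0.08) did not pass.

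Rab3a (chr8:70754679-70758677, + strand, GRCm38), best known from synaptic vesicle release, fell most. It read 3.24, 1.75 and 3.18 scaled TPM at 0h and 0.289, 0.131 and 0.188 at 1h, where its mean was 13.4-fold lower. At 12h it read 0.891, 0.907 and 1.09 and at 48h 0.94, 0.836 and 0.758, between the 1h and the 0h libraries without overlap. The log2 fold change of Rab3a was -3.20 (standard error 0.28, limma adjusted p = 4.8e-05) at 1h and -1.53 (standard error 0.28, limma adjusted p = 0.000944) at 48h. Rab27a, which docks lysosome-related organelles and exosome carriers at the surface, was higher at 12h (1.99, 1.94 and 1.32) than at 0h (0.96, 0.793 and 0.941), by 0.87 (standard error 0.22, limma adjusted p = 0.0115). At 48h its mean was 1.1 ± 0.162 (SD, n = 3), which did not pass against 0h. Rab3d, Rab26 and Rab37, further secretory members, did not pass in any comparison on the scaled TPM, while Rab37 passed at 12h on the deposited TPM.

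Among the members grouped as other, Rab28, a Rab of cilia, fell. It read 6.27, 4.76 and 4.41 scaled TPM at 0h, 3.5, 3.4 and 2.22 at 12h and 1.72, 3.58 and 1.98 at 48h, with all 48h libraries below all 0h libraries. The log2 fold change at 48h was -1.11 (standard error 0.27, limma adjusted p = 0.00622). Rab40c, which carries a SOCS box and works with ubiquitin ligases, read 1.43, 1.81 and 1.00 at 0h and 0.741, 0.701 and 0.938 at 12h, a log2 fold change of -0.73 (standard error 0.25, limma adjusted p = 0.0451). This call was lost on leaving out any 1 of 0h replicates 1 and 2, 1h replicates 1 to 3, 12h replicates 1 and 2 or 48h replicate 1, with adjusted p from 0.0577 to 0.15, and on leaving out 0h replicate 2 its value was -0.56. Over the alternatives the adjusted p of limma ran from 0.0204 to 0.321. Rab42, at 0 in every 0h library, read 0.234, 0.305 and 0.236 at 12h and 0, 0 and 0.266 at 48h. It passed at 12h (limma adjusted p = 0.0273) but not without any 1 of the 0h libraries, where the adjusted p was 0.0626 to 0.0656 within a range from 0.000815 to 0.0656. Rab23, a ciliary Rab that acts on Hedgehog signalling, did not pass.

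Further calls rested on narrower margins. Rab6a at 12h (0.96, standard error 0.25, limma adjusted p = 0.0143) was lost without 12h replicate 1 (0.84, limma adjusted p = 0.0578, range from 0.00541 to 0.0697). Rab22a at 12h (0.86, standard error 0.30, limma adjusted p = 0.0497) was lost in 8 of the 12 fits that left out 1 library (limma adjusted p = 0.0514 to 0.173, range over the alternatives from 0.0106 to 0.173). Between 12h and 48h, Rab29 (1.08, standard error 0.29, limma adjusted p = 0.0217) was lost without 12h replicate 1 or 3 or 48h replicate 1 or 3 (limma adjusted p = 0.0538 to 0.0803, range from 0.0107 to 0.479). Rab5b (0.82, standard error 0.21, limma adjusted p = 0.0161) was lost without 12h replicate 1 or 3 or 48h replicate 2 (limma adjusted p = 0.0516 to 0.0608, range from 0.0048 to 0.808), and Rab8b (0.79, standard error 0.20, limma adjusted p = 0.0149) without 12h replicate 3 or 48h replicate 1 or 2 (limma adjusted p = 0.0521 to 0.0556, range from 0.00432 to 0.883). Rab21 (0.59, standard error 0.18, limma adjusted p = 0.0357) was lost without 1h replicate 1, 12h replicate 1 or 2 or 48h replicate 1 (limma adjusted p = 0.051 to 0.116, range from 0.0215 to 0.668). Rab7, Rab31, Rab9, Rab7b and Rab4b kept their calls between 12h and 48h in every fit without 1 library. Of these, all but Rab4b lost the call on the deposited TPM, and Rab7, Rab31 and Rab9 also after rescaling without the 20 most abundant genes.

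Several members share reads with other genes, and the library kit did not keep strand. The exons of Rab24 overlap Prelid1 on the other strand over 62.4% of their length, and those of Rab2b overlap Tox4 and Gm43766 over 64.0%. For Rab6a the share was 19.0% (Mrpl48). A processed pseudogene copy is annotated for Rab7 (Rab7-ps1) and Rab11b (Rab11b-ps2). Of all 100-base stretches of their transcripts, 9.17% for Rab7 and 10.4% for Rab11b occur also in another gene. No 100-base stretch of Rab44, Rab31, Rab29, Rab7b, Rab3a or Rab5c was found in another gene.

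The machinery that loads, removes and reads Rab proteins was counted in 4 lists of 146 genes, of which 122 were tested. At 1h 9 of them rose and 12 fell, or 7.38% and 9.84%, beside 5.42% and 4.92% of all genes. At 12h 28 rose and 9 fell, or 23% and 7.38%, beside 16% and 14.5%. From 12h to 48h 18 rose and 7 fell, or 14.8% and 5.74%, beside 10.5% and 11.9%. On the deposited TPM these counts were 37 and 2 (30.3% and 1.64%, beside 24.1% and 1.41% of all genes), 43 and 4 (35.2% and 3.28%, beside 22.3% and 7.82%) and 5 and 45 (4.1% and 36.9%, beside 4.1% and 31.7%). At 48h against 0h 49 rose and 11 fell, or 40.2% and 9.02%, beside 24.5% and 22% of all genes, with a median log2 fold change of 0.36 beside 0.072 over all genes. With the TPM as deposited 30 rose and 18 fell, or 24.6% and 14.8% beside 15.9% and 27.2%, and the median of the list turned to -0.011 beside -0.18 over all genes. Exchange factors rose in 15 and fell in 1 of 35 tested (42.9% and 2.86%), and effectors and scaffolds in 22 and 6 of 46 (47.8% and 13%). GTPase activating proteins rose in 10 and fell in 3 of 33 (30.3% and 9.09%), and prenylation and GDI genes in 2 and 1 of 8 (25% and 12.5%), so their shares of genes that rose were near those of all genes. Rin2, an exchange factor for Rab5, read 0.097, 0.109 and 0.369 scaled TPM at 0h, 1.74, 2.42 and 3.15 at 1h, 10.3, 9.94 and 10.2 at 12h and 21.8, 23.3 and 26.7 at 48h, with no overlap between time points, and rose by 6.48 (standard error 0.31, limma adjusted p = 3.15e-08). Dennd1c, an exchange factor for Rab35, went from 0.611, 1.15 and 1.86 to 8.83, 10.7 and 9.19, by 3.00 (standard error 0.30, limma adjusted p = 9.82e-06).

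Ocrl, a phosphatase of inositol lipids that binds many Rab proteins, rose from 0.378, 0.0761 and 0.953 to 4.72, 3.67 and 1.64 with a wide spread (2.82, standard error 0.67, limma adjusted p = 0.00486). Tbc1d9, which carries a GTPase activating domain, rose from 0.601, 0.478 and 0.357 to 2.79, 2.73 and 3.13 (2.38, standard error 0.27, limma adjusted p = 2.33e-05). Among those that fell, Tbc1d10c, a lymphocyte protein with such a domain, read 8.12, 10.7 and 9.1 at 0h, 1.28, 1.05 and 1.28 at 1h and 0.988, 1.3 and 2.35 at 48h (-2.59, standard error 0.34, limma adjusted p = 8.54e-05). Rabggtb, a subunit of the enzyme that lipidates Rab proteins, went from 10.1, 8.68 and 13.9 to 3.28, 5.44 and 3.88 (-1.36, standard error 0.21, limma adjusted p = 0.000323). Rabepk, an effector of Rab9, had a log2 fold change of -1.29 (standard error 0.24, limma adjusted p = 0.000925), and Unc13d, the Rab27 effector Munc13-4, one of -1.21 (standard error 0.31, limma adjusted p = 0.00684).

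Because the inducer acts through a transcription factor, the promoter windows of the members were searched on both strands for 3 motifs. These were the C/EBP site TTGCNNAA, the PU.1 site GAGGAAGT and the CLEAR site TCACGTGA, which TFEB and its relatives bind at lysosomal genes. RefSeq windows from 250 bases before to 50 bases after a start (GRCm38.p6) were at hand for 48 of the 59 members, as 60 windows. The C/EBP site was in 6.67% of the Rab windows and 10.8% of 32851 windows of all genes, the PU.1 site in 3.33% and 3.2%, and the CLEAR site in 5% and 0.974%. The 4 members with a C/EBP match were Rab1b, Rab29, Rab40b and Rab43, the 2 with a PU.1 match Rab2b and Rab32, and the 3 with a CLEAR match Rab21, Rab24 and Rab5a. No window held more than 1 match. Of these, Rab40b and Rab32 were not tested, and Rab1b, Rab43 and Rab2b did not pass at 48h. At 48h 47.7% of all members tested and 24.5% of all genes rose. The 4 with a match that rose were Rab29, Rab21, Rab5a and Rab24. For the first 3, the 250 bases before the start are shown 5′ to 3′ on the gene's strand, with the match in capitals. They lie at chr1:131867027-131867276, + strand (Rab29, C/EBP match 174 bases before the start), chr10:115315592-115315841, - strand (Rab21, CLEAR match 31 bases before it) and chr17:53478984-53479233, + strand (Rab5a, CLEAR match 96 bases before it). The CLEAR match of Rab24 lies in the first 8 bases after its start. Rab44, Rab7b, Rab2a, Rab4a, Rab18, Rab26, Rab27b, Rab30, Rab36, Rab37 and Rab38 have no window in the set.
Rab29: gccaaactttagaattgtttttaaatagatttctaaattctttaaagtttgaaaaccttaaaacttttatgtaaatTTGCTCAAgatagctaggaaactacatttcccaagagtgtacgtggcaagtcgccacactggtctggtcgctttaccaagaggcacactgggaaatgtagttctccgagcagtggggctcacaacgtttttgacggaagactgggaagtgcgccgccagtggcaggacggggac
Rab21: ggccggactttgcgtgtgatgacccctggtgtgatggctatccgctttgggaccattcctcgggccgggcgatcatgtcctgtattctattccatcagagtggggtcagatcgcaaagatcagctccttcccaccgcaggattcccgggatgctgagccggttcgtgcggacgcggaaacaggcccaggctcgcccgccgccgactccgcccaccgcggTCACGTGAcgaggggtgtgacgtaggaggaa
Rab5a: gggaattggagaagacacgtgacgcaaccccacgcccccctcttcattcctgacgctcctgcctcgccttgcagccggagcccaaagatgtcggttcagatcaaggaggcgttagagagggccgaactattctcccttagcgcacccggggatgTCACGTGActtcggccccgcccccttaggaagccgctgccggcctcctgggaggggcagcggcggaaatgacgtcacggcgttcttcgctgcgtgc

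Of the members with a match that rose, Rab29, with the C/EBP site, had a log2 fold change of 1.23 (standard error 0.29, limma adjusted p = 0.0084) at 12h, and Rab24, with the CLEAR site, one of 1.23 (standard error 0.19, limma adjusted p = 0.000705). Rab21 and Rab5a, also with the CLEAR site, had 0.13 and 0.20 at 12h, which did not pass. Their calls at 48h were lost on the deposited TPM. On the deposited TPM all 3 members with the CLEAR site rose at 1h, where 24.1% of all genes rose and the median of all genes was 0.59. Rab24 and Rab5a also rose at 12h on that scale, beside 22.3% of all genes. On the scaled TPM none of the 3 passed at 1h, with 0.30 for Rab24, 0.071 for Rab21 and 0.031 for Rab5a. Rab31, Rab5b, Rab8b and Rab7, whose rises were larger than those of Rab21 and Rab5a, had no match of any of the 3 motifs in their windows, which says only that these letters are not there.

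The last question was whether the promoters of the members changed their contacts over the same time. Captured fragments that hold a start were found for 54 members, and interactions listed at a CHiCAGO score of at least 5 were counted for each. The authors merged 2 replicates per time point, so these counts have no replicate error and were not tested. A median Rab promoter had 5.5, 4.5, 6 and 5 listed interactions in the order 0h, 1h, 12h and 48h, beside 8, 7, 7 and 7 for the 11817 genes tested that have a captured fragment. Between 0h and 48h 35.2% of the Rab promoters gained and 44.4% lost interactions in number, beside 39.7% and 49% of these genes. The 54 members include some left out by the filter on low values, such as Rab13 and Rab30. The 11817 genes all passed it, so the 2 sets are not alike. At a score of at least 10, which could be applied at 0h alone, 62 of the 540 interactions of Rab promoters remained and the median was 0. Most of them were thus listed at scores between 5 and 10. Of all 138769 interactions listed at 0h 26624 remained, and the median over the 11817 genes was 1.

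Counts of single members follow in the same order of time points. Rab44, at or near 0 in RNA until 1h, had 0, 0, 5 and 5, over 2 captured fragments, of which 1 also holds a start of Rpl35a-ps3. The 5 at 48h spanned a median of 128 kb and at most 402 kb between fragment centres. For Rab8b the list held 5, 10, 15 and 17, and none of the 5 interactions of 0h was among the 17 of 48h. Rab21 had 16, 16, 22 and 38, and 14 of them were listed at both 0h and 48h, that is 87.5% of the 0h set and 36.8% of the 48h set. Its fragment also holds a start of Gm10752. Rab9 had 4, 3, 1 and 10. These members rose in RNA at 48h on the scaled TPM. The calls of Rab21 and Rab9 against 0h were lost on the deposited TPM.

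Other members that rose in RNA had fewer listed contacts at 48h than at 0h. The promoter of Rab31, among the most connected at every time, had 57, 64, 52 and 46, while its RNA rose. Rab8a, whose fragment also holds a start of Gm16091, had 54, 55, 42 and 24, Rab11a 14, 3, 7 and 2 and Rab5a 10, 1, 2 and 1, and all 3 rose in RNA at 48h. Rab3a, whose RNA fell, also had fewer contacts, with 31, 36, 25 and 19, and all 19 of the 48h set were in the 0h set. Rab7 had 0, 1, 2 and 1, with the highest RNA level of the family. Rab30 had 16, 19, 26 and 38 and Rab13 67, 66, 48 and 49, though both were at or near 0 in RNA. The fragment of Rab13 also holds the start of Rps27, and that of Rab30 a start of 4632427E13Rik, so their contacts cannot be assigned to 1 gene. These members were named after their counts were seen.

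**Figure D5:**
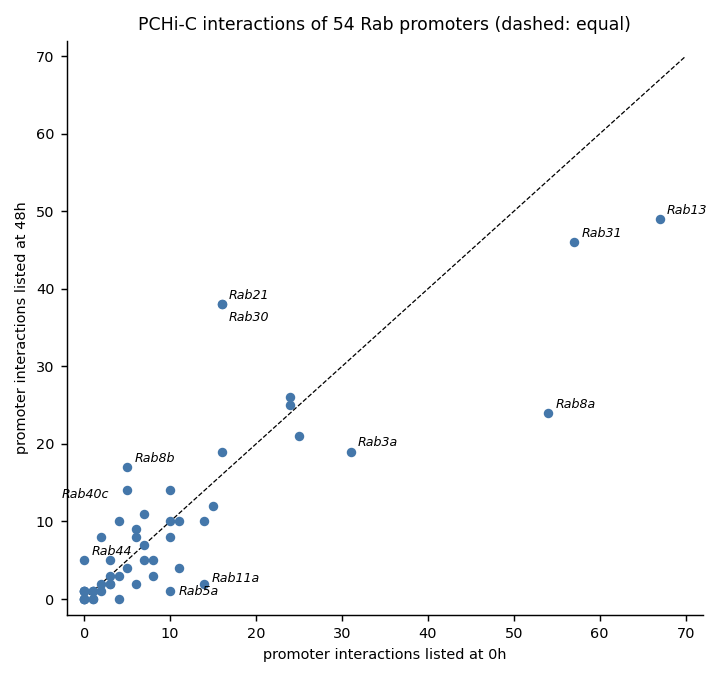
Number of PCHi-C interactions listed for the promoter of each of 54 Rab genes at 0h (x axis) and at 48h (y axis), with equal numbers on the dashed line. Rab21 and Rab30 (16 and 38 each) and Rab8b (5 and 17) lie above the line, and Rab8a (54 and 24), Rab13 (67 and 49) and Rab3a (31 and 19) below it.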

How the data were processed

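C10 libraries were depleted of rRNA and made with a kit that keeps no strand. The authors merged technical replicates, trimmed reads with Trim Galore 0.6.2, mapped them to mm10 with HISAT2 2.1.0, used the Ensembl release 96 annotation and deposited TPM from RSEM. TPM keep no depth, so the depth behind a value is unknown, and read counts, which the authors gave to DESeq2, are not analysed here. For PCHi-C the authors ran CHiCAGO on 2 merged replicates per time point. In the deposited lists, 0h carries a score per interaction, and the others carry whole numbers of unstated unit, of which only presence was used. Hi-C files were not used.

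TPM were divided by median-of-ratios size factors from 11246 genes above 0 in all 12 libraries. Testing covered genes whose deposited TPM averaged 0.1 or more and used limma 3.58.1 (R 4.3.3; lmFit, 1 model of 4 time points, eBayes with trend, two-sided) on log2(scaled TPM + 0.1), a scale that understates changes of low genes, with Benjamini-Hochberg adjustment over all genes. P-values rest on the spread between the 3 libraries of a time point, pooled over the 4 time points and drawn toward a trend over all genes. The labels call these libraries biological replicates. Other steps used Python 3.11.15, numpy 2.4.6, pandas 2.3.3 and matplotlib 3.10.9.

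Members and lists were chosen with earlier results of these data known. Named were, at 48h against 0h, up to 12 members that rose and 12 that fell most among those past the threshold with a mean of at least 1 scaled TPM, 4 and 4 in each other comparison and for regulators, the 6 most abundant members and all left out by the filter. Other members are named to account for each. Alternatives varied the pseudocount, filter, scaling, trend, libraries, replicate block, threshold and promoter definition. Gene coordinates are from GENCODE M21 (GRCm38).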

Additional observations from a re-analysis of the deposited data

How the results depend on the processing

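Of the changes of single genes named by the rule, 812 values over the alternatives kept direction and threshold, 45 kept the direction only and none reversed. The rule did not name Rab21 and Rab31 from 12h to 48h, whose changes did reverse on the deposited TPM. With the TPM as deposited, 14 members rose at 1h, 10 rose and 5 fell at 48h, 0 rose and 11 fell from 12h to 48h, and 30 regulators and effectors rose and 18 fell at 48h. Rescaling without the 20 most abundant genes gave 1 higher and 2 lower from 12h to 48h. The shares of all genes beside these counts are given above. At 1h 2 members rose with quantile normalization and 2 with a mean TPM of at least 1. The 6 libraries compared alone gave 2 lower from 12h to 48h. A fold change over 2 in addition left 0 members higher at 1h, 8 (18.2%) at 12h and 13 (29.5%) at 48h. It left 3 (6.82%) higher and 0 lower from 12h to 48h. Of all 16415 genes, 670, 1966 and 3211 were higher by this rule at 1h, 12h and 48h. From 12h to 48h 1241 of them were higher and 1267 lower. Of the regulators and effectors 29 (23.8%) were higher and 7 (5.74%) lower at 48h, beside 19.6% and 17.6% of all genes. Leaving out 1 library gave 5 to 10 higher and 1 to 4 lower from 12h to 48h, and 18 to 22 higher and 2 to 3 lower at 48h. The cause of these shifts was not tested. Counts with quantile normalization, a higher filter, the 6 libraries alone or 1 library left out stand without a share of all genes. The median of interactions per Rab promoter at 0h was 0 at a score of at least 10 and 5 with the most upstream start alone, which also gave 5 at 1h.

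Same-numbered libraries of different time points had correlated deviations from -0.011 to 0.256 over 18 pairs, and 7 of 12 libraries were closest to their own number, so the numbers were not taken to pair the samples. The replicate 3 libraries stood apart, at 0.0814 to 0.257 with each other and -0.183 to -0.00889 with replicates 1 and 2, whose own same-numbered pairs ran from -0.011 to 0.107. With replicates 1 and 2 alone, an alternative chosen after seeing the data, 1 member rose and 2 fell at 1h. These were 2.33% and 4.65%, beside 2.94% and 2.57% of all genes. At 12h 13 rose and 2 fell, or 30.2% and 4.65%, beside 12% and 10.5%. At 48h 19 rose and 3 fell, with the shares given above. From 12h to 48h 6 rose and 0 fell, or 14% and 0%, beside 7.99% and 9.41%. Of the regulators and effectors 35 rose and 11 fell at 48h, or 28.7% and 9.02%, beside 20.8% and 19.4%. With a replicate block 1 member rose and 3 fell at 1h, 16 and 3 at 12h, 23 and 3 at 48h, and 10 and 1 from 12h to 48h, and of the named changes the block ended that of Rab40c at 12h. The counts with the block stand without a share of all genes. Depth could not be read from TPM, so values near 0 carry no detection limit.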
